A study of Mus musculus with 2 samples.

Results

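The genes described are 10 transcription factor genes, Tox, Tox2, Nr4a2, Nr4a3, Batf, Prdm1, Id2, Tbx21, Eomes and Ikzf2, of 32285 genes measured. They were chosen by symbol, and all 10 were found in both libraries. CD45+ leukocytes were sorted from B16-F10 melanoma tumors of wild-type (WT) mice, and their RNA was counted by droplet single-cell sequencing. Mice of the Control group received vehicle, and mice of the DOPAC group received DOPAC, 3,4-dihydroxyphenylacetic acid, a product of dopamine breakdown. The design text gives 4 mice per group, and each group is 1 library in which cells are not assigned to mice. Cells of 1 library are not replicates, so the differences below have no replicate check, no p-value is given, and every interval covers counting error only.

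T cells that meet antigen for a long time, as in tumors, enter a state called exhaustion, in which the surface receptors PD-1 (Pdcd1), TIM-3 (Havcr2) and LAG-3 (Lag3) are kept on. TOX is a chromatin-binding factor known to establish this state, TOX2 is its relative, and NR4A2 and NR4A3 are orphan nuclear receptors induced by antigen receptor signals. BATF is an AP-1 family factor of activated T cells, BLIMP-1 (Prdm1) a repressor of effector cells, and ID2 an inhibitor of E proteins needed by effector T cells and NK cells. T-bet (Tbx21) and EOMES are T-box factors of cytotoxic T and NK cells, and HELIOS (Ikzf2) is an Ikaros family factor of regulatory T cells and of other T cells that have received strong receptor signals.

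The barcodes kept were 8105 in the Control library, with a median of 9320 UMIs (unique molecular identifiers, 1 per captured RNA molecule), and 9280 in the DOPAC library, with a median of 3592 UMIs. The same cell barcode sequence occurred in both libraries 32 times. Cell classes were set by UMIs of marker genes, and 2595 Control barcodes (32%) and 4912 DOPAC barcodes (52.9%) were placed in a T or NK class. Levels are a gene's share of all UMIs summed over a class, on the usual CPM scale, with exact Poisson 95% intervals.

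CD8 T barcodes outside the cell cycle were split by a UMI of Pdcd1, Havcr2 or Lag3. The Control library held 145 checkpoint-positive and 451 checkpoint-negative barcodes, and the DOPAC library held 1578 and 587. Depth moved with this split, with a median of 8277 UMIs in positive and 7266 in negative Control barcodes, and of 4419 and 3260 in DOPAC barcodes. Negative barcodes were divided further by a UMI of any of a short list of naive T cell genes that includes Lef1, Ccr7 and S1pr1. Of the Control negative barcodes 96.7% had one, against 36.3% of the DOPAC negative barcodes. This gate is loose in the deeper library: 83.4% of Control checkpoint-positive barcodes and 50.2% of Control macrophages also had such a UMI.

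Class names were checked with marker genes that no gate used. Ctla4 stood at 1150 CPM in Control and 2000 CPM in DOPAC regulatory T barcodes, which were gated by Foxp3. Blk stood at 330 CPM in the 42 Control IL-17-type gamma delta T barcodes, and the DOPAC library held only 3 of these. Gzma stood between 2910 and 4390 CPM in the NK classes of both libraries, against 175 and 102 CPM in Control and DOPAC checkpoint-positive CD8 T barcodes. Macrophages gave a background for the lymphocyte genes: in the 2211 Control macrophages Tox stood at 5.65 CPM, Tbx21 at 4.45, Eomes at 1.52 and Ikzf2 at 18.2. In the 481 DOPAC macrophages the same genes stood at 16.4, 8.85, 3.79 and 47.6 CPM. In the 638 Control B barcodes these genes stood at 5.12, 4.31, 2.69 and 11 CPM. Apart from Tox2, the other members stood between 46.2 CPM for Batf and 346 for Id2 in Control macrophages. In DOPAC macrophages they stood between 32.9 CPM for Batf and 504 for Id2.

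Tox (ENSMUSG00000041272, chr4:6686353-6991557, minus strand, GRCm38) had its highest level in regulatory T barcodes of both libraries, at 1110 CPM (1060 to 1160) in Control and 1310 (1170 to 1470) in DOPAC. Checkpoint-positive CD8 T barcodes came next among the DOPAC classes, at 934 CPM (912 to 955), not separated from CD4 T barcodes with no naive-gene UMI at 823, and stood at 636 (597 to 677) in Control, below the IL-17-type gamma delta T barcodes at 825. Among T and NK classes of at least 30 barcodes, the lowest level was 273 CPM in Control checkpoint-negative CD8 T barcodes with a naive-gene UMI, and 163 CPM in DOPAC NK barcodes with a Gzmc or Cxcr6 UMI. After thinning each barcode to 2000 UMIs, 53.5% (exact binomial interval 45 to 61.8) of Control and 71.9% (69.5 to 74.1) of DOPAC checkpoint-positive CD8 T barcodes had a Tox UMI, against 0.913% and 1.99% of macrophages thinned alike. Without thinning the shares were 75.9% and 86%. An antisense gene, Gm11802, overlaps Tox, and whether the counting used strand is not given in the sources used here, so reads of these partners cannot be told apart.

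Tox2 (ENSMUSG00000074607, chr2:163203125-163324170, plus strand) was scarce. It gave 12 UMIs in Control and 20 in DOPAC checkpoint-positive CD8 T barcodes, or 7.73 and 2.57 CPM. Checkpoint-negative CD8 T barcodes gave 0 UMIs in Control and 3 in DOPAC, and all NK barcodes gave 1 and 0. The highest level was 15.5 CPM in Control CD4 T barcodes with a naive-gene UMI. Neighbouring classes in the order of Tox2 levels were not separated beyond their intervals in either library.

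Nr4a2 (ENSMUSG00000026826, chr2:57106830-57124003, minus strand) was high in NK barcodes, at 729 CPM (707 to 751) in Control and 801 (766 to 837) in DOPAC. Among CD8 T barcodes, Control checkpoint-positive ones stood at 508 CPM (473 to 544) and negative ones at 169 (155 to 183). In DOPAC both were close to each other, at 727 (708 to 746) and 668 (633 to 703). The highest class was NK with Itga2 in Control, at 754 CPM, and NK with neither Itga2 nor Gzmc or Cxcr6 in DOPAC, at 923. Regulatory T barcodes were low in both libraries, at 175 and 266 CPM.

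Nr4a3 (ENSMUSG00000028341, chr4:48045153-48086447, plus strand), the relative of Nr4a2, was also high in NK barcodes, at 510 CPM (492 to 528) in Control and 354 (331 to 378) in DOPAC. T barcodes with at least 2 UMIs of the Ly49 receptor genes Klra1, Klra6 or Klra7 reached 426 and 418 CPM. Checkpoint-positive CD8 T barcodes stood at 280 (254 to 307) in Control and 202 (192 to 212) in DOPAC, near the lower end of the order in both libraries. The pair was counted together in the thinned barcodes: 39.8% of Control and 34.8% of DOPAC NK barcodes had a UMI of both, against 21.5% and 21.7% of checkpoint-positive CD8 T barcodes. Control checkpoint-negative barcodes with a naive-gene UMI had both in 8.76%, and their DOPAC counterparts in 18.8%. Of 889 Control NK barcodes, 354 had both, 277 only Nr4a2, 146 only Nr4a3 and 112 neither. Of 589 DOPAC NK barcodes, these counts were 205, 214, 78 and 92. Whether the pair occurred together more often than the single shares give was not tested.

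The factor CREB, which binds the half-site TGACG of the cAMP response element, is a known regulator of the Nr4a gene family. The sequences just before the starts of both Nr4a genes are therefore shown. They are taken from RefSeq (GRCm38.p6), end before the first annotated base of the gene, and are written 5′ to 3′ on the strand of the gene. Capitals mark TGACG and its reverse complement CGTCA, a motif chosen after the letters had been seen. The Nr4a2 window is chr2:57124004-57124253, minus strand, and the Nr4a3 window is chr4:48045055-48045152, plus strand.
Nr4a2: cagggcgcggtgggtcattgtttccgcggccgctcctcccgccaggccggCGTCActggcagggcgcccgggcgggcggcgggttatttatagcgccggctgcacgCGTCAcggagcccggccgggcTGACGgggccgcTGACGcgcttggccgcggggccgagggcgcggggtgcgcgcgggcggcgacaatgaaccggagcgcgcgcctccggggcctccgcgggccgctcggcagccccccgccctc
Nr4a3: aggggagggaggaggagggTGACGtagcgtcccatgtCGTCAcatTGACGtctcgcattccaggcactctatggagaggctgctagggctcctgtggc
The Nr4a2 window of 250 bases held 4 matches on either strand, and the Nr4a3 window of 98 bases held 3. For background, 32841 RefSeq windows were cut to the same lengths, counted from their upstream end. Unlike the Nr4a windows, they were not trimmed at the first annotated base of a gene. Of these windows, 17.8% held at least 1 match in 250 bases and 0.137% held as many as Nr4a2. In 98 bases, 5.23% held at least 1 and 0.0274% held as many as Nr4a3. A match describes letters only, and these data hold no measurement of binding. Promoter entries existed for 8 of the 10 genes, without Tox and Ikzf2.

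Batf (ENSMUSG00000034266, chr12:85686669-85709087, plus strand) was higher in regulatory T than in NK barcodes of both libraries: its level was 130 CPM (113 to 148) in Control and 116 (77.4 to 168) in DOPAC regulatory T barcodes, and 41.9 (36.8 to 47.4) and 21.2 (15.9 to 27.7) in NK barcodes. Checkpoint-positive CD8 T barcodes stood at 120 CPM (103 to 138) in Control and 67.9 (62.2 to 73.9) in DOPAC. Checkpoint-negative ones stood at 128 and 57.7 CPM, so that the libraries differed more than the checkpoint classes within a library. Ly49 T barcodes were low for T cells, at 45.6 and 26.1 CPM.

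Prdm1 (ENSMUSG00000038151, chr10:44437177-44528501, minus strand) had its highest level of the T and NK classes in regulatory T barcodes, at 58.4 CPM (47.4 to 71.1) in Control and 99.8 (63.9 to 149) in DOPAC. Macrophages had 80 and 110 CPM. Checkpoint-positive CD8 T barcodes gave 35 UMIs in Control, or 22.5 CPM (15.7 to 31.4), and 297 UMIs in DOPAC, or 38.1 CPM (33.9 to 42.7). The intervals of neighbouring classes overlapped throughout the order of both libraries.

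Id2 (ENSMUSG00000020644, chr12:25093799-25097140, minus strand) was led in Control by NK barcodes with a Gzmc or Cxcr6 UMI, at 642 CPM (578 to 712), with checkpoint-positive CD8 T barcodes at 412 (380 to 445). In DOPAC the cycling and the checkpoint-positive CD8 T barcodes, at 861 (842 to 880) and 840 CPM (820 to 860), and the CD4 T barcodes with no naive-gene UMI, at 840 (725 to 969), were not separated. NK barcodes with neither marker, at 790 (743 to 839), and with Gzmc or Cxcr6, at 786 (715 to 862), followed, and no neighbours in the DOPAC order were separated. The lowest of these classes was the checkpoint-negative CD8 T class with a naive-gene UMI in both libraries, at 132 CPM (120 to 144) in Control and 418 (375 to 466) in DOPAC.

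The T-box genes had their highest levels in NK barcodes. Tbx21 (ENSMUSG00000001444, chr11:97098071-97115331, minus strand) stood there at 283 CPM (269 to 297) in Control and 175 (159 to 192) in DOPAC. Checkpoint-positive CD8 T barcodes had 116 CPM (99.6 to 134) and 100 (93.2 to 107). Eomes (ENSMUSG00000032446, chr9:118478212-118486132, plus strand), which an antisense gene, Gm33460, overlaps, stood at 242 CPM (229 to 255) and 184 (167 to 201) in NK barcodes, and at 59.3 (47.8 to 72.7) and 30.5 (26.8 to 34.7) in checkpoint-positive CD8 T barcodes. Regulatory T barcodes gave 10 Eomes UMIs in Control and 0 in DOPAC, where a count of 0 allows up to 12.5 CPM. CD4 T barcodes were low as well, with 2.49 and 14.9 CPM from 4 and 6 UMIs. In thinned barcodes, a Tbx21 UMI was found in 37.6% (34.4 to 40.8) of Control and 26.3% (22.8 to 30.1) of DOPAC NK barcodes, against 0.731% and 2.43% of macrophages, and without thinning in 65.1% and 37.1%. An Eomes UMI was found in 36.2% (33.1 to 39.5) and 29.9% (26.2 to 33.8), against 0.274% and 1.1% of macrophages, and without thinning in 65.8% and 40.7%. UMIs of both T-box genes were found in 128 of 889 Control NK barcodes (14.4%) and 46 of 589 DOPAC NK barcodes (7.81%), against 4.17% and 0.986% of checkpoint-positive CD8 T barcodes. Only Tbx21 was found in 206 Control and 109 DOPAC NK barcodes, and only Eomes in 194 and 130. Whether joint UMIs exceeded what the single shares give was not tested.

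Ikzf2 (ENSMUSG00000025997, chr1:69531214-69687245, minus strand) had its highest levels in 2 kinds of T barcodes. Regulatory T barcodes stood at 2780 CPM (2710 to 2870) in Control and 4350 (4090 to 4620) in DOPAC, and Ly49 T barcodes at 2660 (2580 to 2730) and 2140 (2020 to 2270). These classes were not separated in Control, and were separated in DOPAC. T barcodes that no other T gate took came next, at 1380 CPM (1340 to 1420) in Control and 1210 (1160 to 1250) in DOPAC. Checkpoint-positive CD8 T barcodes stood at 582 (545 to 621) and 583 CPM (566 to 600). In thinned regulatory T barcodes, 83.5% (75.2 to 89.9) of Control and 98.1% (90.1 to 100) of DOPAC barcodes had an Ikzf2 UMI, against 3.2% and 7.73% of macrophages and 93.6% and 98.3% without thinning. Tox and Ikzf2 UMIs occurred together in 56.9% and 61.1% of thinned regulatory T barcodes, and in 16.7% and 36.3% of checkpoint-positive CD8 T barcodes. Of 109 Control regulatory T barcodes, 62 had both, 6 only Tox, 29 only Ikzf2 and 12 neither. Whether joint UMIs of Tox and Ikzf2 exceeded what the single shares give was not tested. The annotation places 3 further genes over Ikzf2, of which Gm28112 and Gm29112 lie in its introns on the same strand and Gm29114 is antisense.

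**Figure D1:**
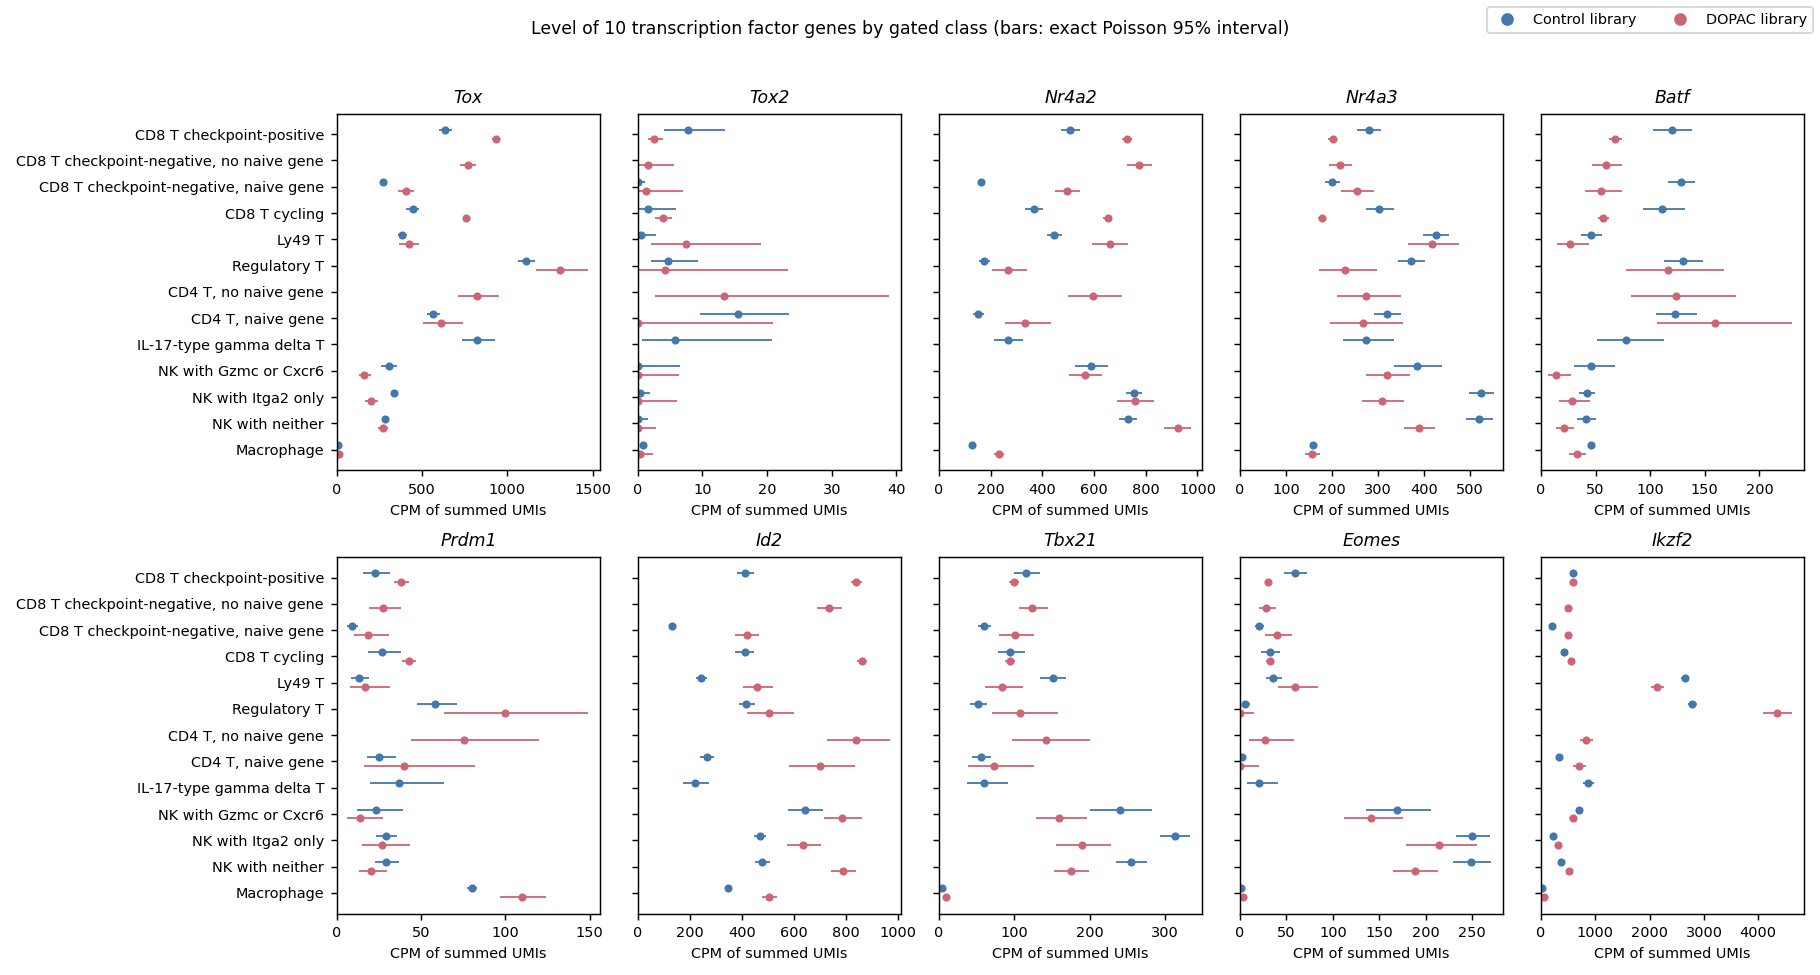
Level of each of the 10 genes (CPM of summed UMIs, each axis starting at 0) in gated classes with at least 30 barcodes, as points for the Control and DOPAC libraries with exact Poisson 95% intervals. B barcodes, and T barcodes that no other T gate took, are not shown. Tbx21 and Eomes are highest in the NK classes, Ikzf2 in regulatory and Ly49 T barcodes, and Tox in regulatory T barcodes at 1110 and 1310 CPM.

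In the Control library, checkpoint-positive CD8 T barcodes had higher levels of most members than negative ones. A gene was counted when the sums compared held at least 20 UMIs together, and called apart at a ratio of at least 1.5 after 1 count was added to each sum. Of 9 members counted, 7 were higher and 0 lower, with a median log2 ratio of 1.22 against 0.09 over all genes counted, of which 19.9% were higher and 11.3% lower. The largest ratios were those of Nr4a2, 3.01-fold (2.7 to 3.36), Id2, 2.91-fold (2.58 to 3.28), Eomes, 2.86-fold (2.08 to 3.96), and Ikzf2, 2.81-fold (2.55 to 3.11). Eomes stood at 78.9 CPM (62.5 to 98.3) in the 105 positive barcodes with 1 of the 3 receptor genes. It stood at 24.4 (11.1 to 46.3) in 30 with 2 and 22 (5.98 to 56.2) in 10 with 3, against 20.7 (16.2 to 26.1) in negative ones. Tox was 2.26-fold higher (2.07 to 2.47), Prdm1 2.34-fold (1.41 to 3.89) and Tbx21 1.8-fold (1.47 to 2.2). Nr4a3, 1.35-fold (1.2 to 1.52), and Batf, 0.937-fold (0.785 to 1.12), did not reach the threshold. Tox2, with 12 UMIs against 0, was not counted. Against the limit that 3 counts set in the negative barcodes, its level was 8.83-fold higher. The lower end of the counting interval of the Tox2 ratio was 6.13-fold. With barcodes thinned to 2000 UMIs before the split, 58 positive and 299 negative barcodes were left and 4 members were called. Counts of members called in thinned barcodes, here and below, are given without the share of all genes called at that depth. The log2 ratios were then 1.18 for Tox, 1.52 for Nr4a2, 0.88 for Id2 and 0.93 for Ikzf2. Those of Eomes and Tbx21 were 0.37 and 0.32, in place of 1.51 and 0.85, and that of Prdm1 was 0.56 in place of 1.22.

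In the DOPAC library the same split gave fewer calls. Of 10 members counted, 1 was higher and 0 lower, with a median log2 ratio of 0.23 against 0.00 over all genes, of which 6.79% were higher and 8.78% lower. The member called was Prdm1, at 1.57-fold (1.16 to 2.16), a call that thinning ended with a log2 ratio of -0.09. Tox lay just under the threshold, at 1.48-fold (1.4 to 1.58). It stayed under it in 8 of 13 other settings and was called higher in the rest, with log2 ratios up to 1.05 when Tigit and Ctla4 were added to the checkpoint genes. It was followed by Id2, 1.37-fold (1.29 to 1.45), and Ikzf2, 1.17-fold (1.09 to 1.25). Nr4a2 was 1.09-fold (1.03 to 1.16), Nr4a3 0.873-fold (0.788 to 0.968) and Tbx21 0.868-fold (0.751 to 1.01). Whether the Control and DOPAC ratios differ was not tested, since each is 1 library.

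The negative barcodes of the libraries held different shares with a naive-gene UMI, as given above. Against the 374 DOPAC negative barcodes with no naive-gene UMI, 0 of 10 members were higher and 0 lower, and 7.24% of all genes were higher and 8.8% lower. Only the negative side was restricted this way: 21.8% of the DOPAC checkpoint-positive barcodes had a naive-gene UMI and were kept. Tox was then 1.22-fold (1.14 to 1.3), Id2 1.14-fold (1.07 to 1.22), Ikzf2 1.16-fold (1.06 to 1.26) and Nr4a2 0.94-fold (0.879 to 1.01). Control held 15 such negative barcodes, under the 30 needed here, so the same comparison was not made there. The share of naive cells in the Control ratios was not tested.

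**Figure D2:**
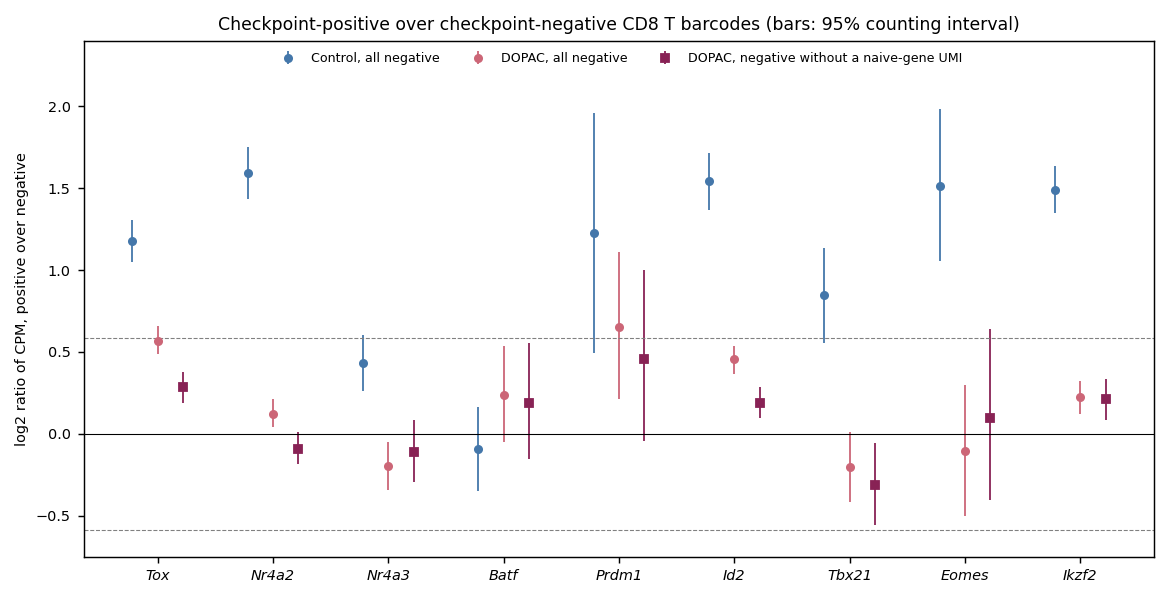
Log2 ratio of CPM of checkpoint-positive over checkpoint-negative CD8 T barcodes for 9 members (Tox2 is left out), with 95% counting intervals and no count added; dashed lines mark a 1.5-fold difference. In Control, 7 members lie above the upper line, and in DOPAC only Prdm1 does when all negative barcodes are used.

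Related factors were counted over the same split. Of 24 related transcription factors, 21 were counted in Control, 9 higher and 5 lower, against 19.9% and 11.3% of all genes. The highest were Zeb2 (log2 ratio 1.79), Rbpj (1.69) and Bhlhe40 (1.52). The lowest were Klf2 (-1.97), Lef1 (-1.80) and Bach2 (-1.41), factors of naive and resting T cells. Of 22 counted in DOPAC, 0 were higher and 7 lower, against 6.79% and 8.78% of all genes. There the lowest were Tcf7 (-2.80), Lef1 (-1.80) and Klf2 (-1.68), and the highest Rbpj (0.48), Batf3 (0.47) and Ikzf3 (0.40). Lef1 is 1 of the naive genes of the gate. Against DOPAC negative barcodes with no naive-gene UMI, 2 of 21 were higher and 4 lower, where 7.24% of all genes were higher and 8.8% lower. Lef1 (5.64), which the gate itself fixes, Batf3 (1.00) and Nfatc2 (0.54) were highest and Tcf7 (-1.17), Klf2 (-1.11) and Egr2 (-0.83) lowest.

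Tox was graded by the number of checkpoint genes detected. In DOPAC, its level was 629 CPM (595 to 664) in the 587 barcodes with 0 of the 3 receptor genes, 888 (857 to 919) in 809 barcodes with 1, 977 (943 to 1010) in 612 with 2 and 957 (897 to 1020) in 157 with 3. Median depth went from 3260 to 5686 UMIs over the same steps. With every barcode thinned to 2000 UMIs before the split, Tox stood at 745 CPM (703 to 788), 966 (917 to 1020), 1160 (1060 to 1270) and 1480 (1120 to 1900), the last from 20 barcodes. The steps from 0 to 1 and from 1 to 2 were separated at equal depth, while the intervals at 2 and 3 overlapped.

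Id2 followed over the first step, from 615 CPM (582 to 650) with 0 receptor genes to 818 (789 to 848) with 1, and from 769 (727 to 813) to 910 (862 to 960) in thinned barcodes. Nr4a2 went from 684 CPM (644 to 725) to 789 (745 to 836) and 863 (779 to 954) over 0, 1 and 2 receptor genes in thinned barcodes. Ikzf2 had no steady order there, with 573, 631 and 451 CPM. In the 20 thinned barcodes with 3 receptor genes, Id2 was at 700 CPM (465 to 1010), Nr4a2 at 825 (568 to 1160) and Ikzf2 at 850 (589 to 1190). Prdm1 was 24.3 CPM (18.1 to 31.9) with 0 receptor genes and 37.8 (31.7 to 44.8) with 1 on all UMIs, but 40.6 (31.4 to 51.6) and 37.3 (28.2 to 48.5) in thinned barcodes. In Control, with 105, 30 and 10 barcodes at 1, 2 and 3 receptor genes, Tox stood at 441 (401 to 485), 1160 (1050 to 1280) and 637 CPM (526 to 764), against 281 (264 to 300) at 0.

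**Figure D3:**
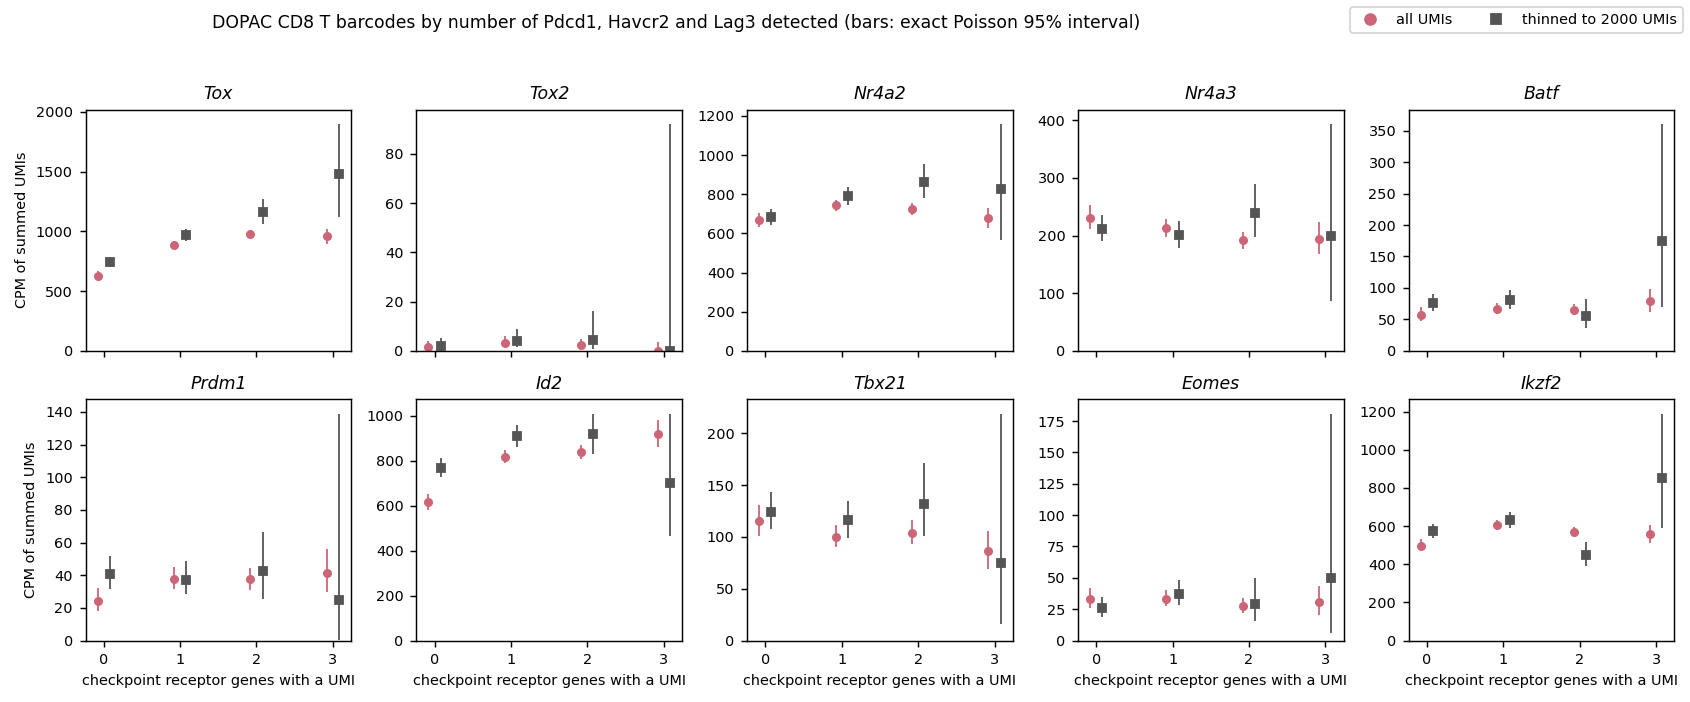
Level (CPM of summed UMIs) of each member in DOPAC CD8 T barcodes with a UMI of 0, 1, 2 or 3 of Pdcd1, Havcr2 and Lag3, on all UMIs and with every barcode thinned to 2000 UMIs, with exact Poisson 95% intervals. Tox goes from 745 to 1480 CPM in thinned barcodes, where the last group holds 20 barcodes and its interval overlaps that of the group before it.

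Compared with CD8 T barcodes outside the cell cycle, NK barcodes were set apart by the T-box genes. Eomes was 7.38-fold (6.28 to 8.74) higher in Control and 5.91-fold (5.11 to 6.85) in DOPAC, and Tbx21 3.51-fold (3.15 to 3.93) and 1.69-fold (1.51 to 1.9). Nr4a3 was 2.22-fold (2.07 to 2.38) and 1.7-fold (1.57 to 1.84) higher. Batf was lower in NK barcodes, at 0.334-fold (0.287 to 0.388) and 0.322-fold (0.239 to 0.427) the CD8 T level. Tox was 0.8-fold (0.751 to 0.853) in Control and 0.263-fold (0.241 to 0.286) in DOPAC. Id2 and Nr4a2 were 2.17-fold (2.02 to 2.32) and 2.66-fold (2.5 to 2.83) higher in Control NK barcodes, and 0.949-fold (0.902 to 0.998) and 1.12-fold (1.07 to 1.18) in DOPAC. The CD8 T levels of both genes moved more between libraries. Id2 went from 226 CPM in Control to 792 in DOPAC, against 489 to 752 in NK barcodes. Nr4a2 went from 274 to 714 CPM, against 729 to 801 in NK barcodes. Of these CD8 T barcodes, 93.5% in Control and 25.7% in DOPAC had a naive-gene UMI. The part of naive cells in the ratios was not tested. Of 9 members counted in Control, 6 were higher and 1 lower, where 17.5% of all genes were higher and 14.3% lower. Of 10 counted in DOPAC, 3 were higher and 4 lower, where 17.2% were higher and 15.4% lower.

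Within NK barcodes, those with a UMI of Gzmc or Cxcr6 were set against those with Itga2 (the integrin CD49b of conventional NK cells) and neither of the former. Ikzf2 was higher in the former in both libraries, 708 against 230 CPM in Control, or 3.08-fold (2.71 to 3.48), and 581 against 314 CPM in DOPAC, or 1.85-fold (1.54 to 2.22). Eomes was 0.674-fold (0.539 to 0.835) in Control, under the threshold, and 0.657-fold (0.491 to 0.874) in DOPAC, past it. In Control, 1 of 9 members counted was higher and 0 lower, against 17% and 13.6% of all genes. In DOPAC, 1 of 9 was higher and 3 lower, against 12% and 15.5%, the other lower members being Batf and Prdm1, with 8 against 17 and 8 against 16 UMIs. In thinned DOPAC barcodes, 46 against 74, 4 members were again called but not the same ones: Tox (log2 ratio 1.25, in place of -0.30), Ikzf2 (1.20) and Id2 (0.63) were higher and Eomes (-1.02) lower, while Batf was at -0.05 and Prdm1 at -0.31. This count is given without the share of all genes called at that depth.

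Regulatory T barcodes had more Ikzf2 than other CD4 T barcodes, 8.87-fold (8.09 to 9.75) higher in Control and 5.64-fold (4.96 to 6.42) in DOPAC. Tox was 2.08-fold (1.92 to 2.26) and 1.8-fold (1.53 to 2.11) higher, and Prdm1 2.09-fold (1.45 to 3.04) and 1.67-fold (0.91 to 3.08). Id2 was 1.63-fold (1.44 to 1.84) in Control and 0.647-fold (0.52 to 0.8) in DOPAC, and Nr4a2 1.12-fold (0.943 to 1.33) and 0.552-fold (0.409 to 0.736). Between Control and DOPAC, Id2 went from 257 to 778 CPM in CD4 T and from 417 to 503 in regulatory T barcodes. Nr4a2 went from 157 to 482 CPM in CD4 T and from 175 to 266 in regulatory T barcodes. Of 9 members counted in Control, 4 were higher and 1, Tox2, was lower, against 19.6% and 13.6% of all genes. In DOPAC, 3 of 8 were higher and 2 lower, against 17.6% and 12.4%. The DOPAC regulatory T class held 58 barcodes. In thinned Control barcodes, 30 against 112, Ikzf2 (log2 ratio 2.68) and Tox (1.42) were called, Prdm1 (0.03) and Id2 (0.04) lost their calls, and Tox2 turned to 1.90 from under 20 UMIs, too few to be counted. In thinned DOPAC barcodes Id2 was at -0.70 and Prdm1 at 0.69.

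Ly49 T barcodes, compared with checkpoint-negative CD8 T barcodes, had 12.8-fold (11.9 to 13.9) more Ikzf2 in Control and 4.3-fold (3.95 to 4.68) more in DOPAC. Nr4a3 was 2.06-fold (1.86 to 2.28) and 1.81-fold (1.54 to 2.12) higher, and Batf lower, at 0.357-fold (0.282 to 0.448) and 0.453-fold (0.24 to 0.789). Nr4a2 was 2.65-fold (2.38 to 2.94) higher in Control and 0.989-fold (0.877 to 1.11) in DOPAC. In Control 6 of 9 members were higher and 1 lower, against 14.7% and 7.18% of all genes. In DOPAC 3 of 9 were higher and 1 lower, against 17.6% and 9.85%.

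Between the libraries, DOPAC checkpoint-positive CD8 T barcodes had more Id2 and Prdm1 and less Eomes, Batf and Tox2 than the Control ones. Id2 was 2.04-fold (1.88 to 2.22) and Prdm1 1.69-fold (1.19 to 2.47) the Control level. Eomes was 0.516-fold (0.404 to 0.663), Batf 0.567-fold (0.479 to 0.673) and Tox2 0.332-fold (0.155 to 0.745), the last from 20 and 12 UMIs. Tox, 1.47-fold (1.37 to 1.57), and Nr4a2, 1.43-fold (1.33 to 1.54), lay under the threshold, Nr4a3 was 0.721-fold (0.648 to 0.804), and Ikzf2 was equal within counting error, 1-fold (0.932 to 1.08). With 2 members higher and 3 lower of 10, the median log2 ratio was -0.11, as over all genes, of which 13.4% were higher and 23.7% lower. The Control class held 145 barcodes. With thinned barcodes, of which Control kept 58 in this class, Eomes had a log2 ratio of -0.25 in place of -0.97 and Nr4a2 one of 0.64 in place of 0.52.

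Naive T cell genes moved with this comparison: Tcf7 stood at 123 CPM in Control and 8.09 in DOPAC checkpoint-positive barcodes. Of the related factors, 22 were counted here, 3 higher and 12 lower, against 13.4% and 23.7% of all genes. Runx3 (1.48), Maf (1.42) and Rbpj (0.68) were highest and Tcf7 (-3.91), Klf2 (-3.57) and Lef1 (-2.92) lowest. A difference in naive cell content and a difference by treatment cannot be told apart with 1 library per group.

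In checkpoint-negative CD8 T barcodes with a naive-gene UMI, Id2, Nr4a2 and Ikzf2 were higher and Batf lower in DOPAC. Of 9 members counted, 6 were higher and 1 lower in DOPAC, with a median log2 ratio of 1.00 against 0.02 over all genes, of which 17.5% were higher and 17.1% lower. Id2 was 3.18-fold (2.75 to 3.68), Nr4a2 3.04-fold (2.67 to 3.47) and Ikzf2 2.31-fold (2.04 to 2.62) the Control level, followed by Prdm1, 2.09-fold (1.04 to 4.01), Eomes, 1.97-fold (1.25 to 3.04), and Tbx21, 1.69-fold (1.29 to 2.2). Batf was lower, 0.429-fold (0.307 to 0.585). With thinned barcodes the log2 ratios of Id2 and Nr4a2 were 1.83 and 1.51, that of Eomes turned to -0.15, and that of Tbx21 was 0.42 and under the threshold. The members called were then 3, given without the share of all genes called at that depth. Naive T cell genes outside the gate were also lower in the DOPAC barcodes, Tcf7 at 120 CPM against 308 and Satb1 at 1000 against 2310, and their part in the differences was not tested.

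Cycling CD8 T barcodes, gated by Mki67 and Top2a, numbered 67 in Control and 1003 in DOPAC. Tox was 1.71-fold (1.57 to 1.87), Nr4a2 1.78-fold (1.62 to 1.96) and Id2 2.1-fold (1.92 to 2.3) higher in DOPAC, while Nr4a3 was 0.588-fold (0.525 to 0.66) and Batf 0.514-fold (0.425 to 0.625). Tbx21, 0.992-fold (0.816 to 1.21), and Eomes, 1-fold (0.718 to 1.44), were near equal. Of 10 members, 5 were higher and 2 lower, where 13.5% of all genes were higher and 24.7% lower.

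In NK barcodes the DOPAC library had less Tbx21, 175 against 283 CPM or 0.619-fold (0.556 to 0.688), and less Batf, 0.506-fold (0.369 to 0.683). Eomes was 0.759-fold (0.682 to 0.844), Nr4a3 0.695-fold (0.644 to 0.749) and Tox 0.729-fold (0.663 to 0.801), none of them past the threshold. Id2 was higher, 752 against 489 CPM or 1.54-fold (1.45 to 1.63), and Ikzf2 was 1.45-fold (1.35 to 1.56). Of 9 members 1 was higher and 2 lower, with a median log2 ratio of -0.45 against -0.09 over all genes, of which 11.8% were higher and 19.5% lower. With thinned barcodes 4 members were called, a count given without the share of all genes called at that depth. Id2 was at a log2 ratio of 0.58, under the threshold, while Ikzf2 (0.93) and Prdm1 (-0.75) passed it. Of the related factors, 0 of 22 were higher and 7 lower, with Klf2 (-2.10), Irf4 (-1.97) and Nr4a1 (-1.08), the third NR4A receptor gene, lowest and Runx3 (0.50), Id3 (0.46) and Maf (0.38) highest.

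Regulatory T barcodes of DOPAC had more Ikzf2, 1.56-fold (1.46 to 1.67), Tbx21, 2.08-fold (1.29 to 3.26), Prdm1, 1.71-fold (1.05 to 2.69), and Nr4a2, 1.52-fold (1.14 to 2), and less Nr4a3, 0.615-fold (0.458 to 0.811). The 8 members counted gave 4 higher and 1 lower, where 24.2% of all genes were higher and 19.5% lower. With thinned barcodes, 32 in DOPAC and 30 in Control, Ikzf2 turned to a log2 ratio of -0.16. Nr4a2 (0.44) and Nr4a3 (-0.42) fell under the threshold. Tox was at -1.15 in place of 0.25, and Id2 at 1.40 in place of 0.28, both past it. Ly49 T barcodes had 2 of 9 members higher, Id2 at 1.88-fold (1.61 to 2.19) and Eomes at 1.65-fold (1.05 to 2.54), and 2 lower, Tbx21 at 0.556-fold (0.397 to 0.762) and Batf at 0.572-fold (0.301 to 1.01). The background there was 16.3% higher and 16.6% lower. In the thinned Ly49 barcodes Eomes turned to -0.15.

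CD4 T barcodes of DOPAC had 5 of 9 members higher and 0 lower, where 20.9% of all genes were higher and 19.1% lower. Nr4a2 was 3.08-fold (2.54 to 3.73), Id2 3.03-fold (2.61 to 3.52), Ikzf2 2.46-fold (2.13 to 2.83), Prdm1 2.13-fold (1.24 to 3.58) and Tbx21 1.92-fold (1.31 to 2.76) the Control level. Genes of cytotoxic cells moved with this comparison: Nkg7 stood at 933 and 659 CPM in DOPAC CD4 T barcodes without and with a naive-gene UMI, against 632 and 298 in Control, and Ccl5 at 2240 and 4530, against 1650 and 1640. Whether CD8 T cells with no Cd8 UMI entered this class was not tested. In thinned barcodes Ikzf2 turned to a log2 ratio of -0.05, while Nr4a2 was 1.71 and Id2 2.14.

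**Figure D4:**
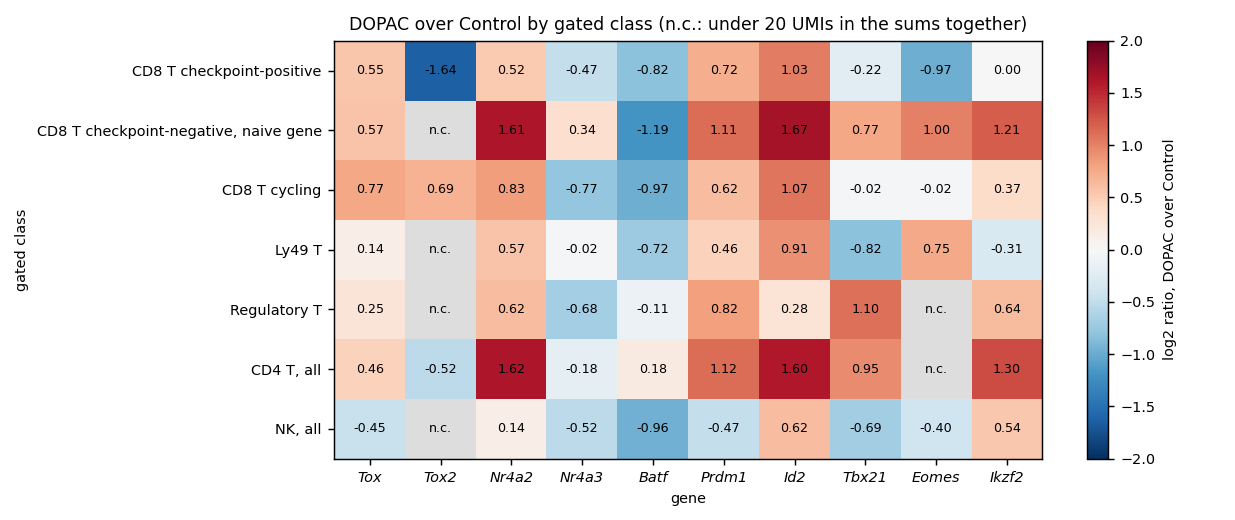
Log2 ratio of DOPAC over Control for each member (columns) in 7 gated classes (rows), with 1 count added to each sum; grey cells held under 20 UMIs. Id2 is above 0 in every class shown, from 0.28 to 1.67, Nr4a2 from 0.14 to 1.62, and Batf is below 0 in 6 of 7 classes, at 0.18 in CD4 T barcodes.

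Id2 was called higher in DOPAC in 6 of the 7 classes, with log2 ratios from 0.62 in NK to 1.67 in naive-gene CD8 T barcodes. In regulatory T barcodes it was 1.21-fold (0.986 to 1.46), not past the threshold. Nr4a2 was called higher in 4 classes, with ratios from 0.62 in regulatory T to 1.62 in CD4 T barcodes, and did not pass in checkpoint-positive CD8 T (0.52), Ly49 T (0.57) and NK barcodes (0.14). Batf was called lower in 5 classes, with ratios from -1.19 to -0.72, and not in regulatory T, 0.898-fold (0.583 to 1.33), or CD4 T barcodes, 1.12-fold (0.818 to 1.51). Macrophages, gated only as a reference, moved the same way for Id2, Nr4a2 and Batf. Their Id2 stood at 346 CPM (339 to 352) in Control and 504 (476 to 533) in DOPAC. Nr4a2 stood there at 130 (126 to 134) and 233 (214 to 253), and Batf at 46.2 (43.9 to 48.5) and 32.9 (26 to 41). Whether these shifts run through the whole libraries was not tested. The T-box genes had no common direction. Tbx21 went from -0.82 in Ly49 T to 1.10 in regulatory T barcodes, and Eomes from -0.97 in checkpoint-positive to 1.00 in naive-gene CD8 T barcodes. All 7 comparisons share the same pair of libraries. Thinning, which could not be done for the cycling class, changed some of these calls. Id2 was then under the threshold in NK (0.58) and past it in regulatory T barcodes (1.40). Nr4a2 was under it in regulatory T (0.44) and past it in checkpoint-positive CD8 T (0.64) and Ly49 T barcodes (0.86). Batf was under it in naive-gene CD8 T barcodes (-0.56). In the classes not yet given, related factors were higher and lower in 6 and 5 of 20 (naive-gene CD8 T, against 17.5% and 17.1% of all genes), 5 and 10 of 22 (cycling, 13.5% and 24.7%), 6 and 6 of 21 (Ly49 T, 16.3% and 16.6%), 4 and 7 of 20 (regulatory T, 24.2% and 19.5%), and 5 and 5 of 20 (CD4 T, 20.9% and 19.1%).

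Likeness between genes was described by Pearson's r of log2(CPM + 5) over 23 class-by-library sums, among 10900 genes. These sums share 2 libraries, their depth and overlapping marker gates, so no p is given. Among the members, Tbx21 and Eomes were most alike (0.80), followed by Tox and Prdm1 (0.76), while Batf and Eomes (-0.77) and Tox and Eomes (-0.73) ran opposite. Nr4a2 and Nr4a3 were little alike (0.17). Tox was most like Mxi1 (0.93), Rapgef5 (0.91) and Lamc1 (0.90), Nr4a2 most like Atp10a (0.92), Setbp1 (0.90) and Serpinb9 (0.89), and Nr4a3 most like Lrrc8d and Ifrd1 (both 0.86) and Zfand3 (0.85). Tbx21 was most like Nfatc1 (0.88), Fhl2 and Chsy1 (both 0.86), and Eomes most like Sult2b1 (0.93), Klri2 and Sft2d2 (both 0.91). For Id2 the nearest were Cox7a2 (0.94), Ptpn7 (0.91) and Ywhab (0.89), for Batf Gstt2 (0.92), Ncoa2 and Rgs10 (both 0.90), and for Prdm1 Tg (0.92), Stx11 (0.90) and Slc16a3 (0.88). Tox2, with 141 UMIs in these sums, was nearest to Susd3 (0.84), Fam171b (0.80) and AW011738 (0.77). The genes nearest to Ikzf2 were Gm28112 (0.91) and Gm29114 (0.83), both of which overlap it in the annotation, and whose reads cannot be told apart from its own without strand and intron settings, and then Eya3 (0.80).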

How the data were processed

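The authors deposited a raw count of UMIs for each gene in each barcode. Per the file headers these came from Cell Ranger 7.0.1, with GRCm38 as the build per the submitters' processing notes. Colon tissue and captured beads stand in the labels' protocol, but the tissue is labelled as tumor, which was followed. Whether the mice of a group were pooled is not given in the sources used here. The raw libraries held 9629 (Control) and 10777 (DOPAC) barcodes with 100938364 and 47769958 UMIs.

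Barcodes were kept with at least 500 UMIs, 200 genes and at most 10% mitochondrial UMIs. Doublets were scored with Scrublet in scanpy 1.11.5. Its automatic threshold removed 339 Control barcodes (4.015%), but marked 0 in DOPAC, where the 815 highest scores (8.073%) were removed instead. T and NK barcodes with over 0.1% of UMIs from genes of other lineages were left out (238 in Control, 536 in DOPAC). T barcodes had at least 2 UMIs of Cd3d, Cd3e and Cd3g, CD8 T barcodes a UMI of Cd8a or Cd8b1, and NK barcodes at least 2 of Ncr1, Klrb1c and Klre1.

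UMIs were summed per class. Ratios of CPM used 1 added count, genes whose 2 sums held 20 UMIs or more, and classes of at least 30 barcodes, with calls at 1.5-fold. Fold changes are plain CPM ratios with exact conditional 95% intervals. Shares were thinned to 2000 UMIs, with exact binomial intervals. No test was run, since each group is 1 library. The ratio script was tested on simulated data. Named genes are all 10 members, the 3 highest and 3 lowest of 24 related factors in the main comparisons (printed for the checkpoint comparisons and for DOPAC over Control in checkpoint-positive CD8 T and NK barcodes), and the 3 genes most like each member. The members and lists were chosen with earlier results of these data known. Alternatives varied the gates, filters, thinning and scaling. The naive gene list of the gate is named in part, and what it leaves out is not reported here.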

Additional observations from a re-analysis of the deposited data

Results flagged for a closer look

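Some members went opposite ways under the same contrast, past 1.5-fold and with intervals that exclude equality on both sides. Prdm1 was higher in NK than in CD8 T barcodes in Control (log2 ratio 1.06) and lower in DOPAC (-0.76), and in thinned barcodes it stood at 1.64 and -0.93. Its level was 13.7 CPM in Control and 35.2 in DOPAC CD8 T barcodes, and 28.7 and 20.4 in NK barcodes. Id2 was higher in regulatory T than in other CD4 T barcodes in Control (0.70) and lower in DOPAC (-0.62). The Id2 level was 257 CPM in Control and 778 in DOPAC CD4 T barcodes, and 417 and 503 in regulatory T barcodes. In thinned barcodes the Control ratio of Id2 was 0.04 and the DOPAC ratio -0.70, so that the Control call was lost.

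Between DOPAC and Control, Tbx21 was higher in checkpoint-negative CD8 T barcodes with a naive-gene UMI (0.77), in regulatory T (1.10) and in CD4 T barcodes (0.95), and lower in Ly49 T (-0.82) and NK barcodes (-0.69). Eomes was lower in checkpoint-positive CD8 T barcodes (-0.97), and higher in the checkpoint-negative ones with a naive-gene UMI (1.00) and in Ly49 T barcodes (0.75). In thinned barcodes Tbx21 in the naive-gene CD8 T class was at 0.42, under the threshold, and in the other classes named here it was at 1.39 (regulatory T), 0.85 (CD4 T), -0.83 (Ly49 T) and -0.59 (NK). The Eomes ratios did not pass the threshold there, at -0.25, -0.15 and -0.15 in the order given. These differences between groups were not tested, with 1 library per group.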

How the results depend on the processing

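Of 160 counts of members called apart under another setting, 138 stayed within 1.5 times the main count and 22 did not. For single members, 1345 of 1475 ratios stayed within their interval, 123 moved past it, and 7 called ratios changed sign, all with barcodes thinned to 2000 UMIs: Prdm1 between the DOPAC checkpoint classes (-0.09), Eomes in DOPAC over Control naive-gene CD8 T (-0.15) and Ly49 T barcodes (-0.15), Ikzf2 in regulatory T (-0.16) and CD4 T barcodes (-0.05), Tox2 in Control regulatory over CD4 T (1.90), and Eomes in Control Ly49 T over checkpoint-negative CD8 T barcodes (-0.08). Thinning leaves fewer UMIs and barcodes, and the cause was not tested.

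For the DOPAC checkpoint classes, the main count of 1 was 0 with thinning, doublets kept, cycling barcodes kept, a mitochondrial limit of 5%, or no barcode with Lef1, Ccr7 or Tcf7 (an alternative chosen after seeing the data). It was 2 with checkpoint calls from 2 UMIs, with Tigit and Ctla4 added, without the limit on other lineages, with CD3 from 1 UMI or with 0.5 counts added, and 3 with Ly49 barcodes kept. Against negative barcodes with no naive-gene UMI it was 3 with Tigit and Ctla4 added and 1 with cycling barcodes kept, in place of 0. Thinning gave 4 in place of 7 for the Control checkpoint classes (Tox, Nr4a2, Id2 and Ikzf2), 3 in place of 7 for DOPAC over Control in naive-gene CD8 T barcodes, 2 in place of 5 in regulatory T barcodes, and 2 in place of 5 for Control regulatory over CD4 T barcodes (Ikzf2 and Tox). In regulatory T barcodes between libraries, Nr4a2, Nr4a3 and Ikzf2 lost their calls, while Tox and Id2, under the threshold before, passed it. CD3 from 1 UMI gave 3 in regulatory T barcodes between libraries, as did median scaling, and 3 in place of 1 (Control) and 2 in place of 4 (DOPAC) for the NK subsets. No filter on low counts gave 2 for the Control NK subsets. These counts are given without the share of all genes called under the same settings. Classes under 30 barcodes could not be compared after thinning (cycling CD8 T between libraries, Control NK subsets) or without Lef1, Ccr7 and Tcf7 barcodes (Control checkpoint classes, and checkpoint-positive, cycling CD8 T and CD4 T between libraries). Low counts limit Tox2 most, with at most 35 UMIs in a class. No paired analysis was possible because each group has 1 library.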
